A study of Homo sapiens with 6 samples.

Results

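The genes described here are 43 members of the TGF-beta, BMP and activin signalling system, listed by symbol and found in a table of 25330 counted genes. They comprise 9 ligands and convertases, 8 extracellular binding proteins and antagonists, 9 receptors, 9 SMADs with SMAD ubiquitin ligases and SKI, and 8 feedback genes and targets. Of the 43, 42 passed the filter on low counts, as did 14199 genes in all, and GREM1, a secreted BMP antagonist, did not. Levels come from 3 libraries labelled RNASEH2A KO and 3 labelled CTRV2 control. All 6 are poly-A RNA of MDA-MB-231, a long-established line of human breast cancer cells without estrogen receptor, grown with no treatment given in the labels in RPMI-1640 with 10% serum, and the replicates of each group are different passages. RNASEH2A encodes the catalytic subunit of RNase H2, which removes ribonucleotides from DNA. How the knockout was made, what CTRV2 stands for and whether the knockout is 1 clone are not stated by the labels. The p-values below cover only how much passages vary.

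Ligands of this family are made as precursors, cut by proprotein convertases and, for the TGF-betas, stored in the matrix bound to latency proteins. A ligand dimer brings type II and type I receptor kinases together, and these phosphorylate SMAD2 and SMAD3 (TGF-beta and activin) or SMAD1, SMAD5 and SMAD9 (BMP), which enter the nucleus with SMAD4. Among the genes that the pathway turns on are its own brakes, such as SMAD6, SMAD7, SKIL and PMEPA1, and the ID genes of the BMP branch. In breast cancer lines of this kind the TGF-beta branch is best known for its part in invasion and bone metastasis.

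Library totals ran from 27928670 to 31596286 counts in the knockout and from 25419877 to 29635083 in the controls. In CPM, counts scaled to library size, the limit behind a count of 0 (3 counts) was 0.0934 to 0.108 in the knockout libraries and 0.101 to 0.119 in the controls, for counting error only. Of 4833 genes with 10 to 200 counts in all, 30.6% had even counts in every library, where independent counting gives 1.56%, so both mates of a pair may each have been counted, and the limit may be too low. RNASEH2A itself had 7, 8 and 16 counts in the knockout libraries and 10, 6 and 15 in the controls (log2 ratio -0.08, exact two-sided permutation p = 0.8, where 0.1 is the smallest that 3 against 3 can give). At 0.359 ± 0.187 CPM in the knockout and 0.381 ± 0.196 in the controls, it had almost no counts in the controls either, and why could not be settled. This count does not check the labels, on which every direction below rests. Knockout replicate 1 stood apart, with a chi-square per degree of freedom of 34.2 and 22.2 against knockout replicates 2 and 3, which were at 6.61 against each other. Control replicate 1 was at 11.4 and 10.2 against the other controls, which were at 2.45. Of the line's defining markers VIM was at 721 ± 38.4 CPM in knockouts and 735 ± 27.2 in controls (SD, n = 3 each), and ESR1 had no count in any library. ESR1 is 1 of 6 genes listed as low or absent in the line. That list still summed to 159.9 to 179 CPM in the knockout and 160 to 178 in the controls, with no called gene. ERBB2 of that list was at 120 ± 9.77 CPM in the knockout and 116 ± 5.95 in the controls, and EPCAM and GATA3 were also counted. A list of leukocyte markers summed to 197.5 to 206 CPM in the knockout and 66.3 to 70.4 CPM in the controls through LCP1 and LAPTM5, while PTPRC, the defining leukocyte gene, was at 0 in all knockout libraries and at 0.194 CPM in the controls. The line's 9 high markers held 1 that fell (KRT18) and summed to 7148 to 7383 CPM in the knockout and 7552 to 7928 in the controls. Fibroblast markers (46.1 to 93.2 CPM in the knockout, 49.3 to 54.4 in the controls) and endothelial markers (2.80 to 5.13 and 3.44 to 4.21) held no called gene. The part of these lists in the results was not tested.

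The windows around the start sites of 5 members are shown first. INHBB, an activin subunit, the activin antagonists FST and FSTL3 and the convertase PCSK6 are shown because they were among the called members described below. SMAD6, an inhibitory SMAD that was not called with all libraries, took the place of ID1 after its motif match was seen. Its knockout libraries differed among themselves, as did those of ID2, which is not shown. All windows were picked after the values were seen. Each runs from 250 bases before to 50 after the start, 5′ to 3′ on the gene's strand (RefSeq, GRCh38.p14). They lie at chr2:120345886-120346185 (plus strand), chr5:53480379-53480678 (plus), chr19:676142-676441 (plus), chr15:101489658-101489957 (minus) and chr15:66701986-66702285 (plus). Capitals mark GTCTAGAC, the palindromic SMAD3 and SMAD4 element, GGCGCC, a GC-rich SMAD element, and CAGAC or its reverse complement GTCTG, the shorter SMAD element. The first and second read the same on both strands, and none of the marked matches overlap.
INHBB: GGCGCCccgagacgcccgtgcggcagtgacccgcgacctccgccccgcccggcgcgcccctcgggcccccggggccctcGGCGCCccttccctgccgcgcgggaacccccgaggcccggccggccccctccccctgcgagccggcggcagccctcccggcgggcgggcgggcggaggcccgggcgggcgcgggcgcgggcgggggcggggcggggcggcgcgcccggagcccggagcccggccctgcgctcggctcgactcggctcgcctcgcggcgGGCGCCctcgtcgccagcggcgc
FST: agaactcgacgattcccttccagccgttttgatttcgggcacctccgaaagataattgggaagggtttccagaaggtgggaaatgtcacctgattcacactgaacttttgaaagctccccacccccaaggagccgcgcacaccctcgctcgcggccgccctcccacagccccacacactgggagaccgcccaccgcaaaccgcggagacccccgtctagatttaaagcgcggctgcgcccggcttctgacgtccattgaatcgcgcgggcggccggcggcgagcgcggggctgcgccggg
FSTL3: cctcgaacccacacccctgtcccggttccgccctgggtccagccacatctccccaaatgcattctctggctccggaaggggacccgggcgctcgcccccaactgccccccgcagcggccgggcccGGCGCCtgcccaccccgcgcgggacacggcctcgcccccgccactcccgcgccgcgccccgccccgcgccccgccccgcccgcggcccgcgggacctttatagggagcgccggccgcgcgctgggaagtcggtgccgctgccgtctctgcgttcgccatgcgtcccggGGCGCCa
PCSK6: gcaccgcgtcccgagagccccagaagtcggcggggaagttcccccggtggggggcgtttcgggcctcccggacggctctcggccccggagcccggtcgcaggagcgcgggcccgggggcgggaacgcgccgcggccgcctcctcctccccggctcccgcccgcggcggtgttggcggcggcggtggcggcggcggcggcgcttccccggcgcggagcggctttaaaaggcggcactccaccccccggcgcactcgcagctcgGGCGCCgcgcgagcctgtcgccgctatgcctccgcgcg
SMAD6: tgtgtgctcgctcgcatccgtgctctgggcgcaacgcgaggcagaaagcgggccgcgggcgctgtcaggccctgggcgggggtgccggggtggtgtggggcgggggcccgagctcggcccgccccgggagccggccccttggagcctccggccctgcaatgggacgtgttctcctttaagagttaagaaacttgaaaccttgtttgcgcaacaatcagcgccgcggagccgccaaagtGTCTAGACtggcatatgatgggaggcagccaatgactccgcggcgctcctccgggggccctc
GGCGCC occurred 3 times in the INHBB window, 2 times in FSTL3 and 1 time in PCSK6, in windows with 88.7%, 78.7% and 80.7% G and C. It occurred in 19.2% of all 35116 windows of this length and in 31.2% of the 77 windows of the 41 members with one. The motif holds only G and C, and the median G and C content of all windows was 58.7%, so these shares compare windows that can differ in composition. SMAD6 held the 1 GTCTAGAC among the members' windows, and 0.202% of all windows held it. None of these 5 windows held CAGAC or GTCTG, which 45.3% of all windows and 51.9% of the members' windows did. That depends on which windows were picked. Of the called members not shown, TGFB2, LTBP1 and BMP4 held it in every window and PMEPA1 in some, while TGFBR2 and ID1 held none. BMP1 and SKI have no window here. A match describes these letters only.

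In the knockout 7 of the 42 tested members fell and 3 rose. The calls are at an adjusted p under 0.05 in edgeR's quasi-likelihood test with Benjamini-Hochberg adjustment over all 14199 genes, of which 12.1% were called, 5.88% higher and 6.22% lower. The members' shares were 7.14% higher and 16.7% lower. Members were chosen with earlier results of these data known, so these shares describe the list only. The 7 that fell were INHBB, FST, FSTL3, PMEPA1, TGFB2, BMP4 and LTBP1, and the 3 that rose were PCSK6, TGFBR2 and ID1. The median log2 fold change was -0.11 over the members and 0.0035 over all tested genes, and the median size was 0.18 and 0.17. The 3 knockout values lay above the 3 control values at 6 members and below them at 14. Over all tested genes 33.5% had no overlap, 16.1% above and 17.4% below. In a bulk culture fewer cells with a transcript and less transcript per cell cannot be told apart.

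**Figure D1:**
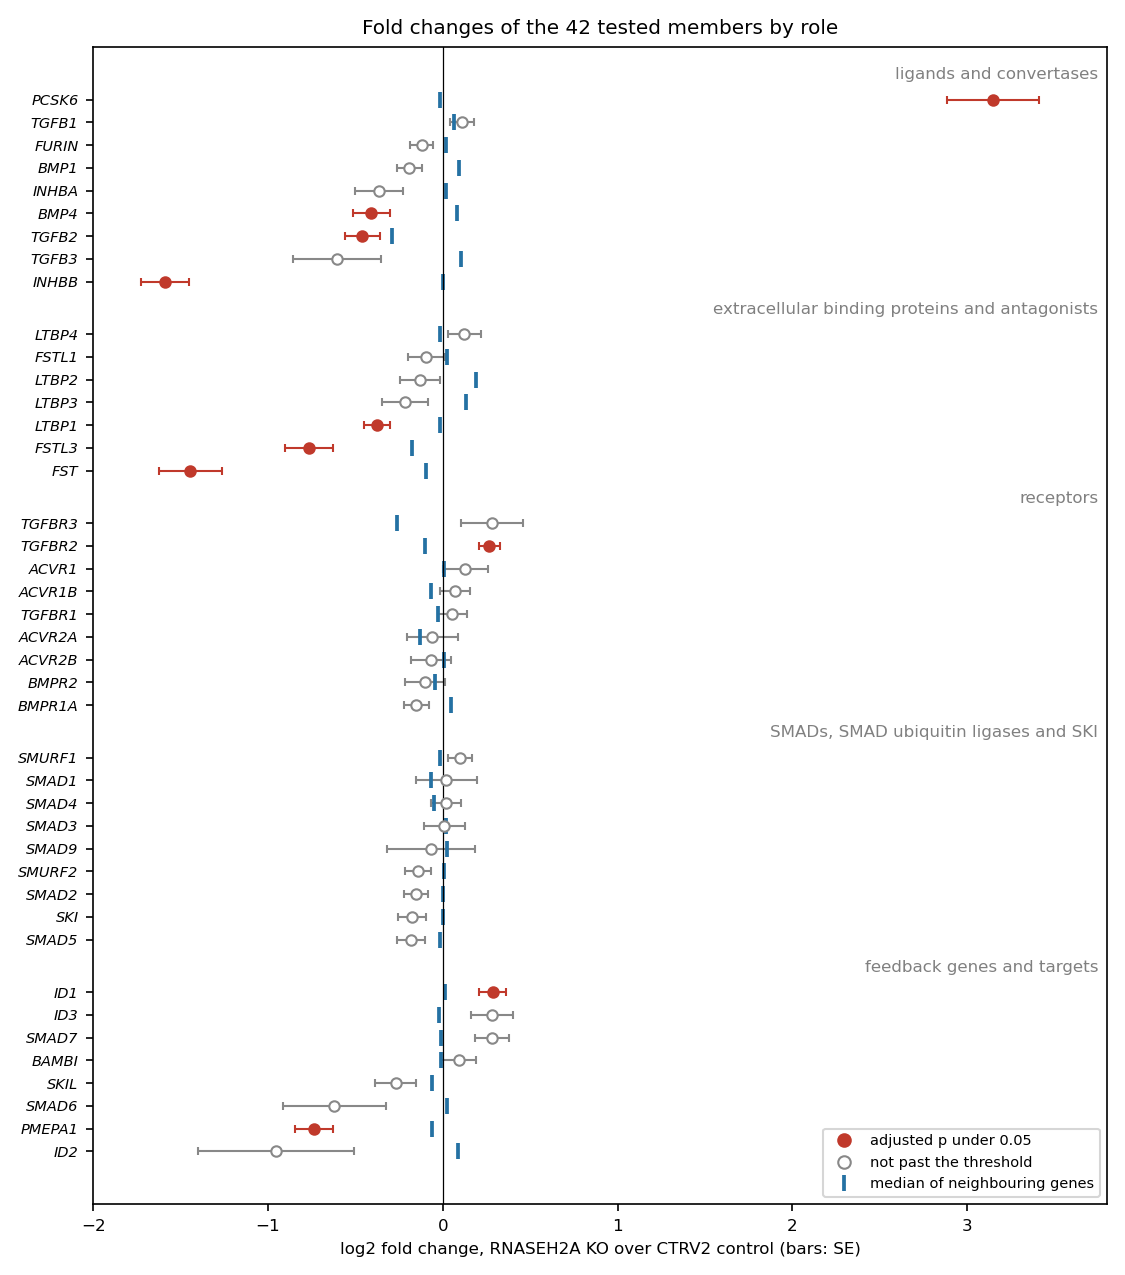
Log2 fold change of each of the 42 tested members, RNASEH2A KO over CTRV2 control, with its SE, by role; filled points have an adjusted p under 0.05, and the blue tick is the median fold change of the 20 nearest tested genes on each side. PCSK6 lies far right at 3.15, and INHBB and FST far left at -1.59 and -1.44. The receptors and the role group of SMADs, SMAD ubiquitin ligases and SKI lie between -0.18 and 0.28, and SMAD6, shown with the feedback genes, lies at -0.62.

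Among ligands and convertases 1 of 9 rose and 3 fell, against 5.88% and 6.22% of all tested genes. Knockout values lay below all controls at 7 of the 9 and above them at 2, against 17.4% and 16.1% of all tested genes. Of those 7, 3 were called. PCSK6 (PACE4), a proprotein convertase that cuts TGF-beta family precursors (chromosome 15, 101303933 to 101489707, minus strand), had 6.20, 5.97 and 5.95 CPM in the knockout libraries and 0.979, 0.596 and 0.436 CPM in the controls. All knockout libraries were high and close to each other, and the controls were near the lower end of what could be tested. The log2 fold change was 3.15 ± 0.26 (SE, edgeR adjusted p = 0.000292), or 8.85-fold. In GENCODE 29 the gene AC023024.1 on the opposite strand shares 21.9% of the PCSK6 exon bases, and the strand setting of the counting is not given, so reads there cannot be assigned to either. FURIN, the broadly active convertase of the same family, averaged 201 ± 11.85 CPM in the knockout and 219 ± 7.16 in the controls (SD, n = 3 each; log2 fold change -0.12 ± 0.07 SE, edgeR adjusted p = 0.264).

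INHBB encodes the beta-B subunit of activin B and inhibin B (chromosome 2, 120346136 to 120351803). It had 7.29, 5.61 and 7.06 CPM in the knockout libraries and 22.7, 18.9 and 18.5 CPM in the controls. The groups lay far apart, and the log2 fold change was -1.59 ± 0.14 (SE, adjusted p = 0.000304), or 3.00-fold lower. INHBA, which encodes the beta-A subunit of activin A, was at 5.82, 5.86 and 6.77 CPM in the knockout and 7.26, 7.82 and 8.73 in the controls (-0.37 ± 0.14 SE, adjusted p = 0.119). Its values did not overlap between the groups but did not pass over all genes.

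TGFB2 and BMP4 fell by less than INHBB. TGFB2, a TGF-beta isoform, was at 128, 95.2 and 111 CPM in the knockout and 159, 151.5 and 149.8 CPM in the controls (log2 fold change -0.46 ± 0.10 SE, adjusted p = 0.0171). The same-strand gene TGFB2-OT1 of GENCODE 29 shares 27.1% of the TGFB2 exon bases, and reads there cannot be assigned to either, which also bears on the isoform shares below. It lies on chromosome 1 (218345336 to 218444619) among genes with a median log2 fold change of -0.29, and against that median it was at -0.17 (adjusted p = 0.337). The call also ended without control replicate 1 (adjusted p = 0.0620), 2 (0.0682) or 3 (0.0687) or without knockout replicate 3 (0.0858). Without these libraries TGFB2 was at -0.48 to -0.44. BMP4, a BMP ligand, was at 258, 186 and 207 CPM in the knockout and 296, 287 and 283 CPM in the controls (-0.41 ± 0.11 SE, adjusted p = 0.0337). Knockout replicate 1 was the highest of its group for both genes, and without it they were at -0.57 (adjusted p = 0.000226) and -0.55 (7.62e-05). The BMP4 call ended without control replicate 1 (adjusted p = 0.0993), 2 (0.1096) or 3 (0.108) or knockout replicate 2 (0.0691) or 3 (0.151). BMP4 was then at -0.42 to -0.31.

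The remaining ligands did not pass. TGFB1, the isoform most studied in cancer, averaged 150.5 ± 8.16 CPM in the knockout and 139 ± 5.62 in the controls (0.11 ± 0.07 SE, adjusted p = 0.317), with every knockout library above every control. TGFB3, the third isoform, was at 1.87, 1.90 and 1.43 CPM in the knockout and 3.31, 2.53 and 2.06 in the controls (-0.60 ± 0.25 SE, adjusted p = 0.152). BMP1, a metalloprotease that processes procollagen and not a BMP ligand, was at 71.8, 64.3 and 64.8 CPM in the knockout and 76.6, 78.2 and 74.7 in the controls (-0.19 ± 0.07 SE, adjusted p = 0.113). Its neighbours on chromosome 8 had a median of 0.09, and against that it passed (-0.28, adjusted p = 0.0447). Per kilobase of median coding transcript length, TGFB1 made up 68.5%, 72.3% and 69.9% of the summed TGFB1, TGFB2 and TGFB3 level in the knockout libraries, and 58.9%, 62.1% and 62.3% in the controls. TGFB2 made up 30.4%, 26.3% and 29.1% in the knockout and 38.9%, 36.3% and 36.4% in the controls. On this per-length scale BMP4 ranked 1 of the 43 members in the controls and PCSK6 ranked 42, the lowest of those tested, and both ranks were the same per merged exon length.

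**Figure D2:**
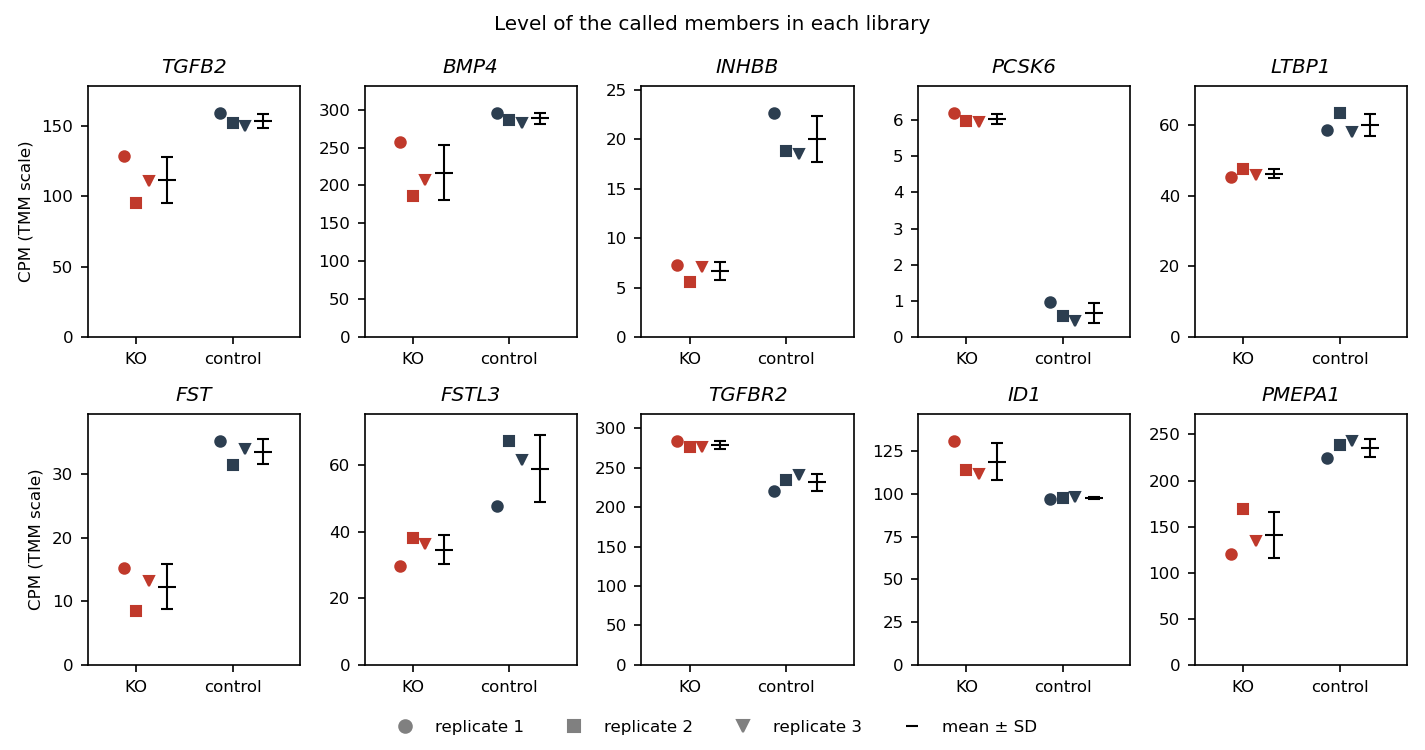
Level (CPM on the TMM scale, axis from 0) of the 10 members called changed, in each RNASEH2A KO library (left, red) and each CTRV2 control library (right, dark), with marker shapes for the replicates and bars for mean ± SD of 3. In none of the 10 panels do the groups overlap, and the widest gap in proportion is in PCSK6, at 6.04 ± 0.137 CPM in KO and 0.670 ± 0.279 in control. The panels were picked by the call, which favours groups without overlap, and 33.5% of all tested genes had none.

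Of the extracellular binding proteins and antagonists 3 of 7 tested members fell and 0 rose, against 6.22% and 5.88% of all tested genes. FST, or follistatin, binds activins and blocks their access to receptors (chromosome 5, 53480629 to 53487134). It had 15.3, 8.41 and 13.2 CPM in the knockout libraries and 35.2, 31.4 and 33.9 CPM in the controls. The highest knockout library was far below the lowest control, and the log2 fold change was -1.44 ± 0.18 (SE, adjusted p = 0.00154), or 2.72-fold lower. FSTL3, a follistatin-like activin antagonist on chromosome 19 (676392 to 683385), had 29.6, 37.9 and 36.3 CPM in the knockout and 47.8, 67.2 and 61.5 CPM in the controls (-0.77 ± 0.14 SE, adjusted p = 0.00779). The lowest control, replicate 1, was still above the highest knockout library. Neighbours of FSTL3 had a median of -0.18, and against it the gene was at -0.59 (adjusted p = 0.0325). INHBB and these activin antagonists were all lower in every knockout library than in any control.

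LTBP1, which holds latent TGF-beta in the matrix (chromosome 2, 32946953 to 33399509), was at 45.3, 47.6 and 45.7 CPM in the knockout and 58.6, 63.3 and 57.9 CPM in the controls (-0.38 ± 0.07 SE, adjusted p = 0.0107). An opposite-strand gene, AC019127.1, shares 3.73% of its exon bases. The LTBP1 call ended without control replicate 2 (log2 fold change -0.34, adjusted p = 0.0713) or knockout replicate 3 (-0.37, 0.0627). The other latency proteins did not pass. LTBP3 was at 43.4, 34.4 and 38.7 CPM in the knockout and 36.3, 50.2 and 48.96 in the controls (-0.22 ± 0.13 SE, adjusted p = 0.327), and the groups overlapped. LTBP4 was at 149, 116 and 125 CPM in the knockout and 118, 118 and 121 in the controls (0.12 ± 0.09 SE, adjusted p = 0.417). LTBP2 was at 39.6, 29.5 and 30.02 CPM in the knockout and 35.9, 37.1 and 35.6 in the controls (-0.13 ± 0.12 SE, adjusted p = 0.513). In both LTBP4 and LTBP2 knockout replicate 1 was the highest of all 6 libraries. FSTL1, a secreted follistatin-like glycoprotein, averaged 223 ± 37.3 CPM in the knockout and 238 ± 9.88 in the controls (-0.09, adjusted p = 0.617). GREM1 had 0, 1 and 0 counts in the knockout and 0, 2 and 2 in the controls, all under the limit that a count of 0 allows.

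Among the 9 receptors 1 rose and 0 fell, against 5.88% and 6.22% of all tested genes. TGFBR2, the type II receptor that binds TGF-beta (chromosome 3, 30606356 to 30694142), was at 284, 276 and 276 CPM in the knockout and 220, 234 and 241 CPM in the controls (0.27 ± 0.06 SE, adjusted p = 0.0193), or 1.20-fold. All knockout libraries were above all controls, while neighbouring genes had a median of -0.10, and against that median it was at 0.37 (adjusted p = 0.00640). The call ended without control replicate 1 (adjusted p = 0.0681), 2 (0.0913) or 3 (0.0691) or knockout replicate 3 (0.0789). TGFBR2 was then at a log2 fold change of 0.23 to 0.30. TGFBR1, the type I partner of TGFBR2, was at 198 ± 20.1 CPM in the knockout and 191 ± 8.63 in the controls (0.06 ± 0.08 SE, adjusted p = 0.704).

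The other receptors did not pass, and the 8 had log2 fold changes from -0.15 to 0.28. TGFBR3, the co-receptor betaglycan, was at 44.7, 27.96 and 29.7 CPM in the knockout and 32.9, 24.97 and 26.3 in the controls (0.28 ± 0.18 SE, adjusted p = 0.340). Replicate 1 was the highest library in both groups, and without knockout replicate 1 the log2 fold change was 0.04. BMPR1A, a type I BMP receptor, was at 60.4, 57.97 and 55.1 CPM in the knockout and 65.6, 61.4 and 65.8 in the controls (-0.15 ± 0.07 SE, adjusted p = 0.1995), with no overlap. ACVR1, a type I receptor for BMPs and activins, was at 34.5, 40.2 and 39.7 CPM in the knockout and 29.1, 33.9 and 41.7 in the controls (0.13 ± 0.13 SE, adjusted p = 0.563). The type II receptors BMPR2, ACVR2A and ACVR2B were at -0.10, -0.06 and -0.07, and ACVR1B, the type I activin receptor, at 0.07, each with overlapping groups. ORC4 on the opposite strand shares 7.5% of the ACVR2A exon bases. It had 3444 counts in the knockout libraries and 3641 in the controls, against 796 and 781 for ACVR2A.

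None of the 9 SMADs, SMAD ubiquitin ligases and SKI passed in the main edgeR fit, DESeq2 or limma-voom, and 2 had an unadjusted p under 0.05 in the main fit. In edgeR SKI passed with the replicate number as a block (adjusted p = 0.0460), and SMAD2, SMAD5, SMURF2 and SKI passed without knockout replicate 1. SMAD3, which carries TGF-beta and activin signals, averaged 216 ± 29.05 CPM in the knockout and 215 ± 29.5 in the controls (0.01 ± 0.11 SE, adjusted p = 0.967). SMAD4, the common partner, was at 51.4 ± 3.45 CPM in the knockout and 50.7 ± 3.65 in the controls (0.02 ± 0.08 SE, adjusted p = 0.912). SMAD5, of the BMP branch, was at 106.6, 105 and 89.9 CPM in the knockout and 117, 109 and 117 in the controls (-0.18 ± 0.08 SE, adjusted p = 0.171). SKI, a co-repressor of SMADs, was at 227, 204 and 189.9 CPM in the knockout and 249, 224 and 229 in the controls (-0.18 ± 0.08 SE, adjusted p = 0.176). SMAD2, the other TGF-beta SMAD, was at 93.9, 83.4 and 87.4 CPM in the knockout and 98.5, 95.9 and 99.7 in the controls (-0.15 ± 0.07 SE, adjusted p = 0.182). Knockout values lay below all controls at SMAD5 and SMAD2, and overlapped them at SKI. SMAD1, SMAD9, SMURF1 and SMURF2 ranged from -0.14 to 0.10. Exon bases are also shared here with other genes of GENCODE 29, where reads cannot be assigned to either. The shares were 16.1% of SMAD1 (SMAD1-AS1, opposite strand), 9.14% of SMAD4 (AC091551.1, same strand) and 7.6% of SMAD5 (SMAD5-AS1, opposite strand).

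Of the 8 feedback genes and targets 1 rose, 1 fell and 6 did not pass, where 5.88% of all tested genes rose and 6.22% fell. PMEPA1, a membrane protein that TGF-beta induces and that holds back SMAD2 and SMAD3 (chromosome 20, 57648396 to 57711472, minus strand), was at 121, 169 and 135 CPM in the knockout and 225, 238 and 243 CPM in the controls. Every knockout library was well below every control (log2 fold change -0.74 ± 0.11 SE, adjusted p = 0.00356), or 1.67-fold lower. The non-coding RNA NKILA on the opposite strand shares 6.58% of its exon bases and had 121 counts in the 3 knockout libraries and 113 in the controls, against 12346 and 19589 for PMEPA1. ID1, an inhibitor of basic helix-loop-helix factors and a BMP target (chromosome 20, 31605289 to 31606510), was at 131, 114 and 111.5 CPM in the knockout and 96.9, 97.6 and 97.8 CPM in the controls (0.29 ± 0.08 SE, adjusted p = 0.0376). The 3 controls were within 1 CPM of each other. The ID1 call ended against its neighbours (adjusted p = 0.0616), and without control replicate 1 (0.102), 2 (0.1385) or 3 (0.140) or knockout replicate 3 (0.0752). Across these fits ID1 was at 0.27 to 0.33.

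SMAD7, the inhibitory SMAD of the TGF-beta branch, was at 34.1, 36.6 and 32.3 CPM in the knockout and 30.8, 25.3 and 28.7 in the controls (0.28 ± 0.10 SE, adjusted p = 0.0930). ID3, a BMP target, was at 53.2, 42.2 and 37.5 CPM in the knockout and 36.7, 37.4 and 35.2 in the controls (0.28 ± 0.12 SE, adjusted p = 0.1615). Both had all knockout libraries above all controls, by a narrow margin at ID3. SKIL, a co-repressor that TGF-beta induces, was at 25.1, 22.0 and 19.5 CPM in the knockout and 30.0, 24.6 and 25.8 in the controls (-0.27 ± 0.12 SE, adjusted p = 0.171). BAMBI, a pseudoreceptor without a kinase domain, was at 15.7 ± 1.18 CPM in the knockout and 14.7 ± 0.441 in the controls (0.09, adjusted p = 0.603).

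**Figure D3:**
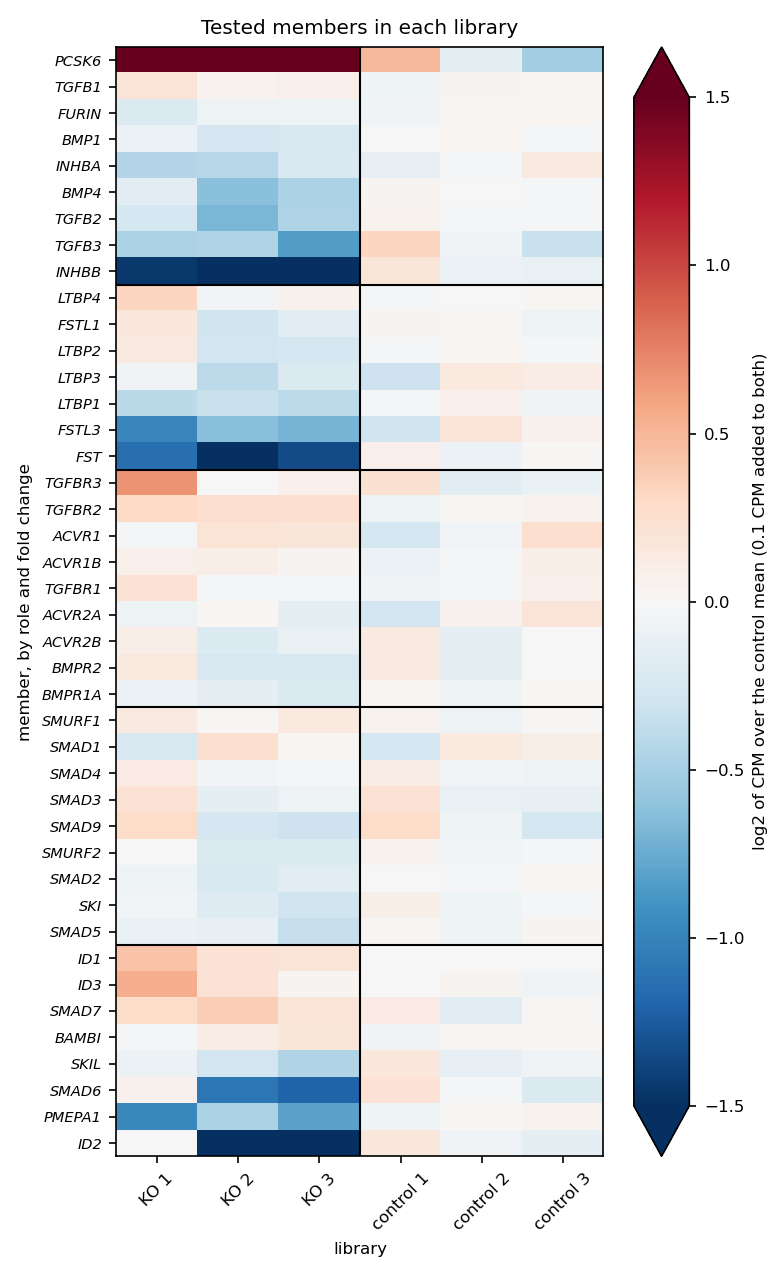
Level of each tested member in each library as log2 of CPM over the control mean (colour, 0.1 CPM added to both, scale cut at 1.5 in both directions), KO libraries left and controls right, rows by role. ID2 and SMAD6 are near the control level in KO replicate 1 and low in KO replicates 2 and 3, while INHBB and FST are low in all 3.

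ID2 and SMAD6, singled out after their values were seen, split the knockout group. ID2, a further inhibitor of basic helix-loop-helix factors, was at 4.42, 1.11 and 1.25 CPM in the knockout and 4.99, 4.28 and 4.05 in the controls (-0.95 ± 0.44 SE, adjusted p = 0.197). SMAD6, the inhibitory SMAD of the BMP branch whose start-site window is shown above, was at 16.4, 7.37 and 6.74 CPM in the knockout and 18.2, 15.3 and 13.5 in the controls (-0.62 ± 0.30 SE, adjusted p = 0.207). At both genes knockout replicate 1 lay within the control range and the other knockout libraries lay below all controls. Without replicate 1 the log2 fold changes were -1.91 ± 0.23 for ID2 (adjusted p = 0.000173) and -1.15 ± 0.15 for SMAD6 (adjusted p = 0.00025). Both were also called with all 3 replicates when no low-count filter was used.

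Leaving out knockout replicate 1 changed the count of members. In that fit 3 rose and 18 fell, where 23.8% of its 14409 tested genes were called, 11.3% higher and 12.5% lower. All 10 members called before were called again, and 11 more fell: BMP1, LTBP2, FSTL1, BMPR2, SMAD2, SMAD5, SMURF2, SKI, SMAD6, SKIL and ID2. Apart from ID2 and SMAD6 these falls were small, between -0.37 for SKIL and -0.20 for SMAD2. By role 4 of 9 ligands and convertases, 5 of 7 extracellular members, 1 of 9 receptors, 4 of 9 SMADs and regulators and 4 of 8 feedback genes and targets were then lower. Leaving out any other library gave 5 to 9 called members, while the calls over all genes ran from 524 to 1457, against 1718 with all libraries. What sets replicate 1 apart was not tested.

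**Figure D4:**
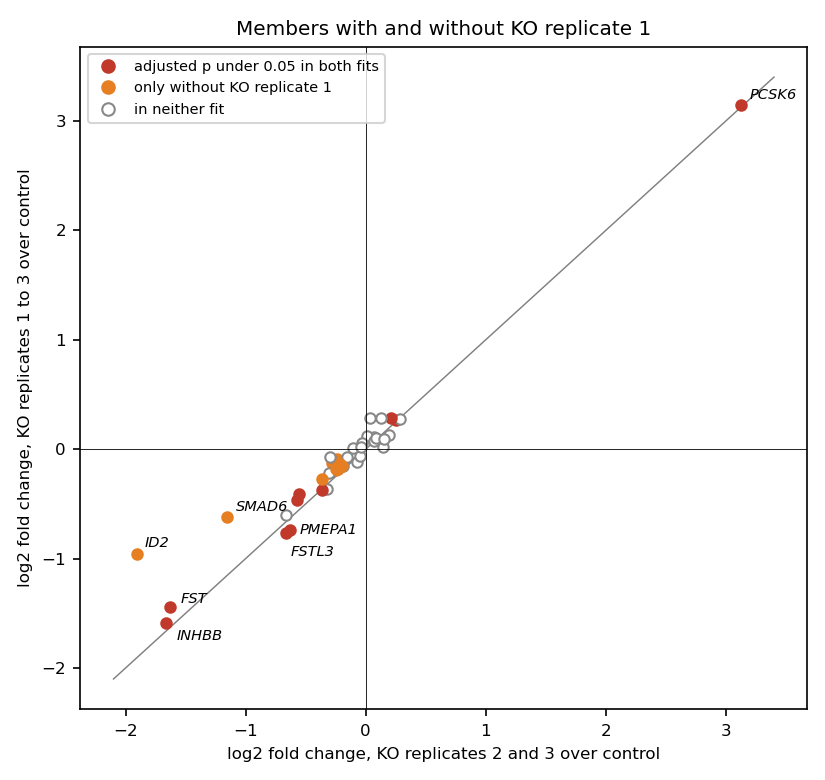
Log2 fold change of each tested member over control with KO replicates 2 and 3 only (x axis) and with all 3 KO replicates (y axis); the line marks equal values. ID2 and SMAD6 lie well above the line at low values, while PCSK6, INHBB and FSTL3 lie close to it.

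Other genes of the system were taken from 6 further lists of 125 distinct genes, of which 89 were tested, 8 rose and 16 fell, against 5.88% and 6.22% of all genes. The lists were made with earlier results of these data known, so these counts add no independent support. CHRDL1, BMPR1B and ID4, among those that fell, passed the low-count filter only through the controls, so only a fall could be seen at them. Among other extracellular activators and antagonists 1 of 17 rose and 6 fell. CHRDL1, a chordin-like BMP antagonist on the X chromosome, had 0 counts in all 3 knockout libraries and 74, 87 and 66 in the controls, at least 26.5-fold lower by a limit of 3 counts per library (edgeR adjusted p = 0.000304). HTRA1, a secreted protease that binds TGF-beta ligands, was at 247 ± 28.6 CPM in the knockout and 415 ± 16.3 in the controls (-0.75 ± 0.08 SE, adjusted p = 0.00101), among chromosome 10 neighbours with a median of -0.35. ITGB8, an integrin chain that activates latent TGF-beta, was at 1.04 ± 0.443 CPM in the knockout and 3.38 ± 0.152 in the controls (-1.68 ± 0.31 SE, adjusted p = 0.00887). The median log2 fold change of this list was -0.21, also with CHRDL1 at its bound.

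Of other receptors and co-receptors 1 of 5 rose and 1 fell. NEO1, neogenin, a receptor for repulsive guidance molecules that act in BMP signalling, was at 30.05, 50.4 and 51.4 CPM in the knockout and 12.55, 19.85 and 19.6 CPM in the controls (1.34 ± 0.23 SE, adjusted p = 0.00606), with replicate 1 the lowest in both groups. BMPR1B, a type I BMP receptor, was at 0.202 ± 0.114 CPM in the knockout and 1.13 ± 0.468 in the controls (-2.43 ± 0.50 SE, adjusted p = 0.0145). The BMPR1B call ended without control replicate 3 (adjusted p = 0.0754) or knockout replicate 3 (0.0585), and BMPR1B passed the low-count filter only through the controls. Of other ligands 1 of 7 fell, GDF5, a BMP-type ligand, at 1.29 ± 0.527 CPM in the knockout and 4.41 ± 0.545 in the controls (-1.76 ± 0.29 SE, adjusted p = 0.00513).

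Of other SMAD partners and regulators 3 of 26 rose and 1 fell. NEDD4L, a ubiquitin ligase for activated SMAD2 and SMAD3, was at 213 ± 8.53 CPM in the knockout and 160 ± 4.95 in the controls (0.42 ± 0.06 SE, adjusted p = 0.00319). USP11, a deubiquitinase (0.31 ± 0.07 SE, adjusted p = 0.0178), and PPP1R15A, a phosphatase subunit (0.48 ± 0.11 SE, adjusted p = 0.0223), also rose, and neither passed against its neighbours (adjusted p = 0.0632 and 0.092). Both calls also ended without any 1 of the controls or without knockout replicate 3, and PPP1R15A's also without knockout replicate 2, where the adjusted p reached 0.0706 for USP11 and 0.105 for PPP1R15A.

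Of other TGF-beta response genes 3 of 28 rose and 6 fell. IL11 and TGFBI were known to differ when the list was made, and no gene of these lists adds independent support. IL11, a cytokine, was at 28.3 ± 4.64 CPM in the knockout and 62.0 ± 3.13 in the controls (-1.13 ± 0.12 SE, adjusted p = 0.000674). TGFBI, a matrix protein named for its induction by TGF-beta, was at 215 ± 16.1 CPM in the knockout and 146 ± 1.57 in the controls (0.56 ± 0.07 SE, adjusted p = 0.00151). KLF10, a zinc-finger factor that TGF-beta induces, was at 104 ± 15.4 CPM in the knockout and 67.95 ± 1.36 in the controls (0.61 ± 0.10 SE, adjusted p = 0.00519). Of 6 other BMP response genes ID4 fell, at 0.131 ± 0.125 CPM in the knockout and 0.981 ± 0.388 in the controls (-2.81 ± 0.65 SE, adjusted p = 0.0227). ID4 passed the low-count filter only through the controls, and its call ended without control replicate 2 (adjusted p = 0.0645) or 3 (0.108) or knockout replicate 3 (0.106).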

How the data were processed

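Poly-A RNA of 6 MDA-MB-231 cultures, 3 per genotype label, was sequenced as strand-specific libraries, per the labels' protocols. FastQC, STAR (version 2) and GRCh38 are named in the submitters' processing notes. For the counting step, the tool, strand setting and annotation were not given in the sources read. As deposited by the authors, the count table holds raw counts of 25330 gene symbols. The log2 CPM table deposited by the authors, with 15066 genes, served as an alternative only.

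Genes kept by filterByExpr were fitted in edgeR 4.0.16 (R 4.3.3) with TMM scaling and no covariate, and tested with the quasi-likelihood F test, two-sided, with Benjamini-Hochberg adjustment. CPM are on the TMM scale, means are ± SD of 3 libraries, and the SE is the absolute log2 fold change over the root of F. The fit was tested on simulated data: with gene-wise dispersions it made more false calls than the nominal share, and the simulation, not the test, was then changed to trended dispersions. The share of false calls behind the adjusted p-values may therefore be above nominal. Alternatives were RLE size factors, library size only, no filter, a mean of 1 CPM, DESeq2 1.42.0, limma-voom and limma 3.58.1 on the deposited values, the replicate number as a block, each library left out, and a test against the median fold change of the 20 nearest tested genes on each side. Positions are from RefSeq (25216 of 25330 symbols matched) and transcript lengths from GENCODE 29, both GRCh38. Median coding transcript length was taken after merged exons gave SMAD2 an outlying length, and statements per length are those that held with both.

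Members and lists were chosen with earlier results of these data known. Values per library are given for called members and, in each role, the 3 others with the smallest p. From each further list up to 3 called genes with the smallest p are named.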

Additional observations from a re-analysis of the deposited data

How the results depend on the processing

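Of 823 values of 55 genes under the alternatives, 748 kept their direction and their side of the threshold. PCSK6, INHBB, FST, FSTL3 and PMEPA1 kept their calls in all 15 alternatives, and the other 5 called members lost theirs in 2 to 5 of them, as given above. With the replicate number as a block 3099 genes were called (1506 higher, 1593 lower) and 16 members (5 higher, 11 lower), which added TGFBR3 (adjusted p = 0.0460), SKI (0.0460), SMAD7 (0.0478), SKIL (0.0444), SMAD6 (0.00834) and ID2 (0.0176) to the 10. Knockout and control libraries with the same number had correlated deviations of 0.316, 0.139 and 0.0855. Each replicate 1 was at -0.243 to -0.154 with replicates 2 and 3 of the other group. Not every library correlated best with its own number: knockout 2 was at 0.141 with control 3, and knockout 3 at 0.0915 with control 2. The main fit did not use the numbers, and whether they pair the libraries was not tested. Against the median of neighbouring genes 982 genes were called (499 higher, 483 lower). Leaving out 1 library, the calls over all genes ran from 524 to 3430 (261 to 1629 higher, 263 to 1801 lower) and over the members from 5 to 21 (1 to 3 higher, 4 to 18 lower); the cause was not tested. The RNASEH2A log2 ratio ran from -0.48 to 0.31 without 1 library. The direction of 8 members that were not called reversed: against neighbouring genes ACVR2A was at 0.070 and SMAD3 at -0.0086. Without 1 library FSTL1 ran from -0.24 to 0.0059, TGFBR1 from -0.031 to 0.10, ACVR2A from -0.19 to 0.046, ACVR2B from -0.16 to 0.0053, SMAD1 from -0.099 to 0.14, SMAD3 from -0.11 to 0.13, SMAD4 from -0.039 to 0.077 and SMAD9 from -0.29 to 0.098.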
